A study of Mus musculus with 9 samples.

Results

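A set of 9 genes that mark bile duct cells and liver progenitor cells, or that build the keratin filaments of liver epithelium, was followed in the livers of diabetic mice with fatty liver disease. They were the transcription factor gene Sox9, the surface protein genes Epcam, Cd24a and Prom1, and the keratin genes Krt7, Krt8, Krt18, Krt19 and Krt23. All 9 genes were found on the array, by matching the RefSeq accession of each probe to a gene symbol, among 20972 named genes. They had 10 probes among 55681, and 8 of the 9 genes passed the filter on dim signal and were tested. The filter asked that at least 0.5 of a probe's spots be well above background on all 3 arrays of at least 1 group. Epcam did not pass it, nor did the second probe of Prom1.

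RNA from the liver of male mice at 20 weeks of age was read on 1-colour arrays, with 1 array for each of 9 mice and 3 mice per group. STAM mice are C57B/6 J males that received streptozotocin, a toxin of insulin-secreting cells, shortly after birth and a high-fat diet from weaning. They develop diabetes, steatohepatitis and liver tumours. STAM-NON mice were not treated further, and STAM-INS mice received subcutaneous insulin glargine until they were killed. Normal mice received neither streptozotocin nor the high-fat diet, and the labels do not name their strain. The STAM model combines a chemical that damages DNA with a diet, and neither was given alone here. The share of spots well above background lay between 46.2% and 65.0%. Albumin and 9 other hepatocyte markers were measured on all arrays, with summed signals of 3889 to 6015 times the 75th percentile signal of the array. All STAM arrays lay on 1 slide and all Normal arrays on another, so slide and group cannot be told apart for any comparison with Normal. Both comparisons with Normal share the 3 Normal mice.

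Bile duct cells (cholangiocytes) are a small minority of the cells of a healthy liver. They carry the keratins 7 and 19 together with the keratins 8 and 18, and hepatocytes normally carry only keratins 8 and 18, which pair as a type II and a type I chain. In chronic liver injury duct-like cells multiply at the edge of the portal tracts, in what is called a ductular reaction, and injured hepatocytes can also take up SOX9. In RNA from whole liver, more cells of a type and more RNA per cell cannot be told apart.

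Values are centred log2 signals, that is, log2 of the background-subtracted spot signal minus the 75th percentile of its array. A value of 0 is the level of that percentile, and the levels of different probes are not compared. In STAM-NON against Normal, 3 of the 8 tested genes (Sox9, Krt7 and Cd24a) were higher with a limma adjusted p under 0.05. Krt7 was well above background on 1 of 3 Normal arrays and passed the filter only through the STAM mice, where it was higher. When detection on all 9 arrays was asked for, 7 genes were left and 2 of them, Sox9 and Cd24a, were called. Of all 26289 tested probes 16.1% passed that threshold, and 6.30% passed it with a higher signal. These 3 genes also did not overlap between the groups, beside 13.2% of all probes that were higher without overlap. The difference was above 0 for 7 of the 8 genes, beside 36.8% of all probes, and their median was 0.69 on the log2 scale beside -0.13 for all tested probes. In STAM-INS against STAM-NON none of the 8 genes passed the limma threshold, beside 0.0913% of all probes. There 1 of the 8 genes (Sox9) had an unadjusted limma p under 0.05, beside 2308 of all 26289 tested probes. The difference was above 0 for 1 of the 8 genes, beside 54.9% of all probes. That count depended on 1 mouse. Without STAM-NON replicate 1 the difference was above 0 for 5 of the 8, with a median of 0.07 beside -0.28 with all arrays. In STAM-INS against Normal 1 gene (Sox9) passed, beside 13.9% of all probes and 5.15% with a higher signal. There the difference was above 0 for 6 of the 8 genes, beside 40.4% of all probes. In that comparison 4 genes were higher without overlap and 1, Krt23, was lower without overlap, beside 15.1% of all probes that were higher without overlap and 29.0% that were lower.

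**Figure D1:**
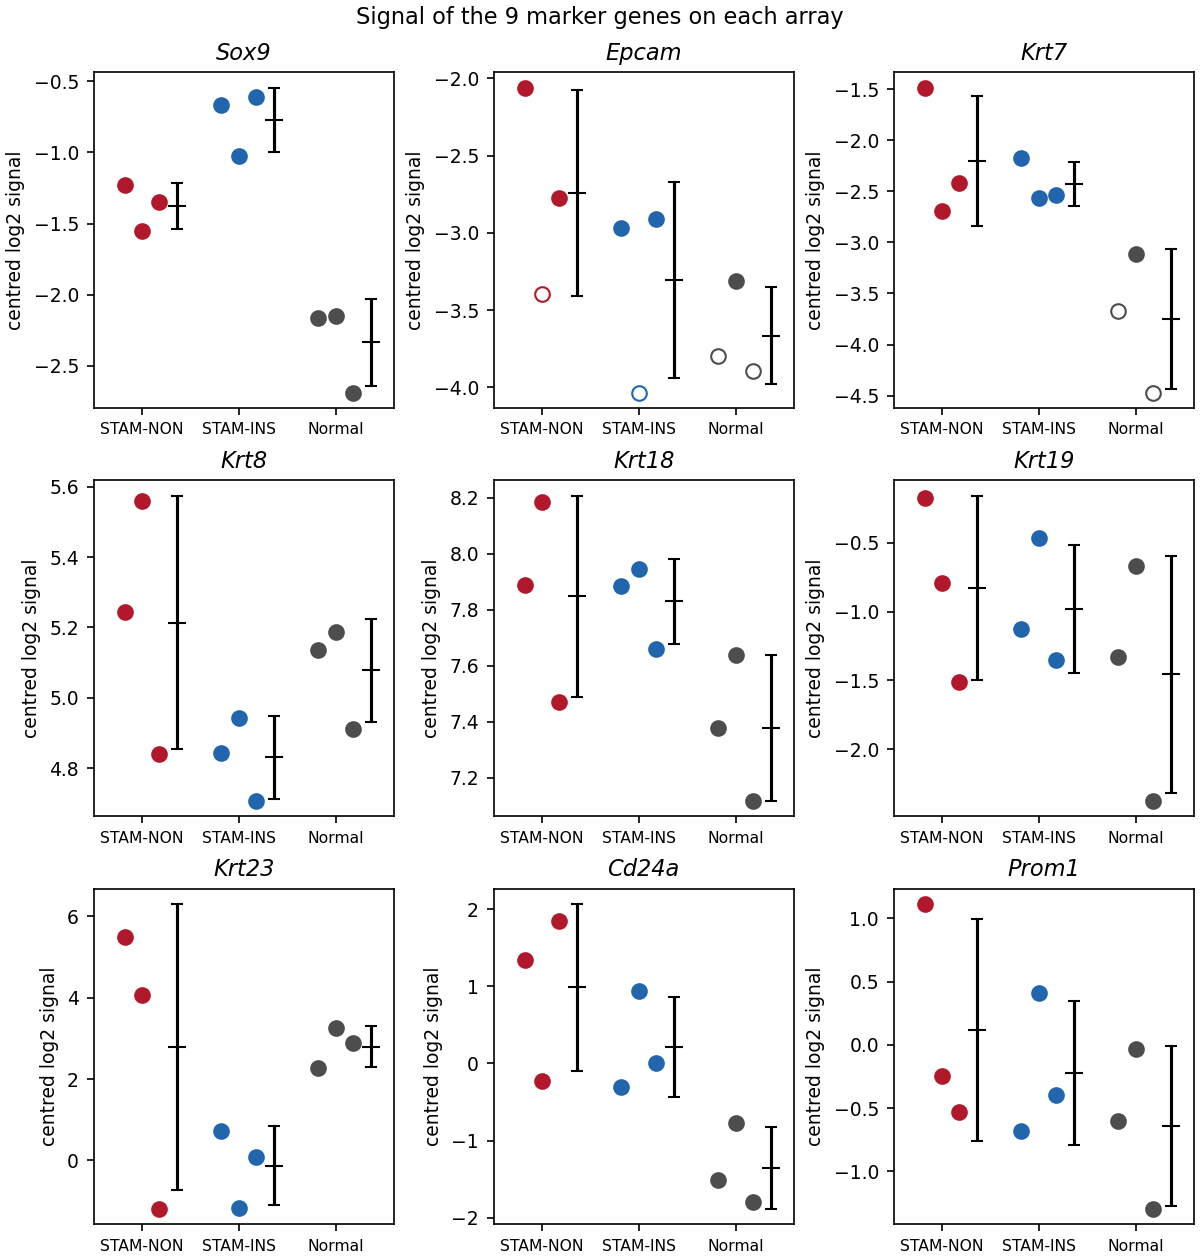
Centred log2 signal of each gene (vertical axes, each with its own range) on the 9 arrays, by group. Filled points were well above background and open points were not, and the black bars give the group mean and SD over 3 mice. Sox9 separates all 3 groups, and Krt23 spans from -1.20 to 5.50 among the STAM-NON mice.

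Sox9 encodes a transcription factor that is needed for bile duct development and marks cholangiocytes and periportal hepatocytes. Its centred log2 signal was -2.17, -2.15 and -2.69 in the Normal mice. It was -1.23, -1.55 and -1.35 in the STAM-NON mice. It was -0.67, -1.03 and -0.61 in the STAM-INS mice. The 3 groups did not overlap, and every insulin-treated mouse lay above every untreated STAM mouse. Sox9 was 0.96 ± 0.19 (SE) higher in STAM-NON than in Normal on the log2 scale, a 1.95-fold difference with a limma adjusted p of 0.0176. In STAM-INS it was 1.57 ± 0.19 (SE) above Normal, or 2.96-fold, with a limma adjusted p of 0.00338. The step of 0.61 from STAM-NON to STAM-INS had an unadjusted limma p of 0.0111 and an adjusted p of 0.475. Groups that did not overlap with the insulin-treated mice higher made up 7.23% of all probes in that comparison.

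The Sox9 probe was spotted 10 times on each array, so its reading error could be measured apart from the spread between mice. The SD over the 10 spots of an array was between 0.0496 and 0.215. The highest of the 30 Normal spots read -1.80 and the lowest of the 30 STAM-INS spots read -1.27. The STAM-NON spots lay between, from -1.81 to -1.09, and overlapped both neighbours at their edges. On the 4 arrays in the same row of the slide, the STAM-INS mouse was 0.71 above the mean of the 3 STAM-NON mice. In the other row, 2 STAM-INS mice were 1.52 above the 3 Normal mice, which lay on the other slide. Sox9 in STAM-INS against Normal passed the threshold under 22 of 22 other settings. In STAM-NON against Normal it passed under 17 of 22. It missed the threshold without STAM-NON replicate 1 (adjusted p = 0.0542) or without Normal replicate 3 (adjusted p = 0.0536). It also missed with no filter on dim probes, at a threshold of 0.01 and with the slide row as a block (adjusted p = 0.328). All STAM-NON arrays lay in row 1 of their slide and all Normal arrays in row 2 of theirs, so that block compares them only through the STAM-INS arrays, which lay in both rows. With normexp background correction, which draws dim probes together, the difference was 0.44 (adjusted p = 0.0234). The genes closest to Sox9 in profile over the 9 arrays, by the measure given with Krt19, were Tnfaip2 (0.207), Gramd4 (0.216) and Tubb2a-ps2 (0.226).

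**Figure D2:**
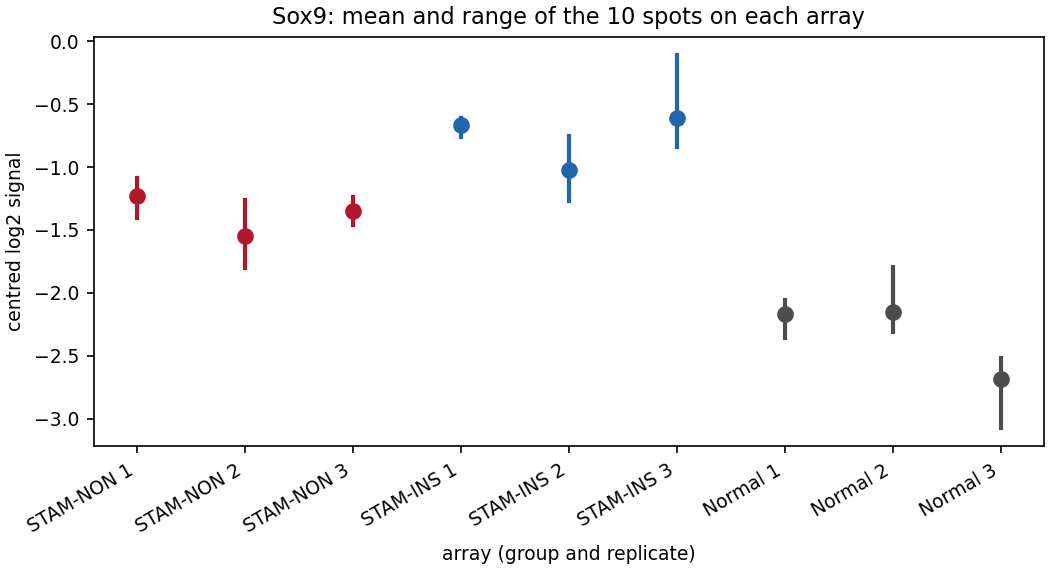
Sox9 signal on each array (vertical axis, centred log2 signal; horizontal axis, the arrays by group and replicate), with the mean of the 10 spots as a point and their range as a line. The spots of the Normal arrays lie between -3.07 and -1.80, below all spots of the STAM-INS arrays.

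Krt7 encodes a type II keratin that marks cholangiocytes. Its centred log2 signal was -1.48, -2.69 and -2.42 in STAM-NON, -2.17, -2.56 and -2.54 in STAM-INS and -3.67, -3.11 and -4.47 in Normal. The probe was well above background on all 6 STAM arrays and on 1 of the 3 Normal arrays, and all STAM mice lay above all Normal mice. The difference was 1.55 ± 0.39 (SE) in STAM-NON against Normal, with a limma adjusted p of 0.0346, and its size rests on 2 Normal readings that were not well above background. In STAM-INS against Normal it was 1.33 ± 0.39 (SE), with a limma adjusted p of 0.0567, which missed the threshold. Insulin-treated and untreated STAM mice overlapped, with a difference of -0.23. The call in STAM-NON against Normal held under 11 of 21 settings and missed the threshold when STAM-NON replicate 1 or 3, STAM-INS replicate 2 or 3, or Normal replicate 1 or 3 was left out, at adjusted p between 0.0552 and 0.0931. It was 0.44 with normexp (adjusted p = 0.0497) and missed the threshold with the slide row as a block (adjusted p = 0.472). Its closest genes in profile were Gzmm (0.247), Clip2 (0.249) and Cx3cl1 (0.270).

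Start regions of 4 keratin genes were taken from the RefSeq table of GRCm38.p6. Their sequences are shown because Krt7 was called higher, Krt8 and Krt18 kept the same order of mice within each group, and Krt23 varied most. Each runs from 250 bases before the annotated start to 50 bases after its first base. The regions lie at chr15:101412153-101412452 on the plus strand, chr15:102004293-102004592 on the minus strand, chr15:102027966-102028265 on the plus strand and chr11:99493071-99493370 on the minus strand. Capitals mark matches on either strand to 6 motifs. The TEAD motif was searched as GGAATG and the RBPJ motif, through which Notch acts, as TGGGAA. The AP-1 motif was searched as TGANTCA and the SOX motif as ACAAAG. The GC box was searched as GGGCGG and the TATA box as TATAAA.
Krt7: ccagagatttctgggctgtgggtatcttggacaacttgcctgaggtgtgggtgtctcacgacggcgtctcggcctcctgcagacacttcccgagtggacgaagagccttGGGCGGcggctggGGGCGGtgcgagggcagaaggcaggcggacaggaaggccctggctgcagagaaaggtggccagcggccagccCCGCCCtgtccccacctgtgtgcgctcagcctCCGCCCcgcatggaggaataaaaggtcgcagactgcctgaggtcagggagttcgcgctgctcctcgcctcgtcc
Krt8: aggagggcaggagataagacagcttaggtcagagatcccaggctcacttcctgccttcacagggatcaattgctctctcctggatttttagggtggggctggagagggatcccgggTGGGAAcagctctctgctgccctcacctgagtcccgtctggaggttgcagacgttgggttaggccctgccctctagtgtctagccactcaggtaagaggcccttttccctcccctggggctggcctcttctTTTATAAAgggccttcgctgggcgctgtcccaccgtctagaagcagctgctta
Krt18: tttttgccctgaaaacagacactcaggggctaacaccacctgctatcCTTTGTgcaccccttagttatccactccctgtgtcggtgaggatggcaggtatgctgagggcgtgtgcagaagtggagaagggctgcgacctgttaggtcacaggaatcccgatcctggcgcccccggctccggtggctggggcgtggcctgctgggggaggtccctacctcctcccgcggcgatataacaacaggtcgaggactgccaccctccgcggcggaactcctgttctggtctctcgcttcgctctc
Krt23: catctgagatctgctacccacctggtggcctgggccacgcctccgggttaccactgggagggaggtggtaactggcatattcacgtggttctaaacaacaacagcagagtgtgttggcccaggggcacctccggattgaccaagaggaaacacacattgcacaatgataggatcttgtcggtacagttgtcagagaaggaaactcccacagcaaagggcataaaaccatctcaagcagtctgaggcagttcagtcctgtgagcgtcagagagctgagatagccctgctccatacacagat

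The Krt7 region held 4 GC boxes, a motif present in 35.7% of the 32851 regions of this length, and none of the other motifs. The Krt8 region held the RBPJ letters once (25.6% of regions) and the TATA box letters as 2 overlapping matches on opposite strands (13.6% of regions). The Krt18 region held the SOX letters once (18.7% of regions). The Krt23 region held none of the 6 motifs, and the TEAD and AP-1 letters, in 14.7% and 7.81% of regions, were in none of the 4. A match describes the letters of this window and does not show that a factor binds there. Krt7, Krt8 and Krt18 lie on chromosome 15, with 2 annotated genes between Krt8 and Krt18, and Krt23, Krt19 and Sox9 lie on chromosome 11.

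Krt8 and Krt18 encode the keratin pair of hepatocytes. Krt8 had centred log2 signals of 5.24, 5.56 and 4.84 in STAM-NON, 4.84, 4.94 and 4.71 in STAM-INS and 5.14, 5.19 and 4.91 in Normal. Krt18 had 7.89, 8.19 and 7.47 in STAM-NON, 7.89, 7.95 and 7.66 in STAM-INS and 7.38, 7.64 and 7.12 in Normal. Within each of the 3 groups, replicate 2 was highest and replicate 3 lowest for both genes, an order that 0.269% of the 13384 other tested genes shared with Krt18 in all groups. Neither gene passed the limma threshold in any comparison. Krt18 was 0.47 ± 0.21 (SE) higher in STAM-NON than in Normal (adjusted p = 0.141) and 0.45 ± 0.21 (SE) higher in STAM-INS (adjusted p = 0.169), and the STAM-INS and Normal mice did not overlap. Krt8 differed by 0.14, -0.38 and -0.25 in STAM-NON against Normal, STAM-INS against STAM-NON and STAM-INS against Normal, with adjusted p of 0.622, 0.595 and 0.378. Among the 3 genes closest in profile to Krt8 were Dennd1b (0.105) and Catsperd (0.107). Closest to Krt18 were 2210016F16Rik (0.0997), Anapc4 (0.120) and Ift122 (0.141). By the same measure over the 9 arrays, Krt8 and Krt18 were 0.293 apart. Krt18 ranked 3816 of 13384 genes from Krt8, and Krt8 ranked 1245 from Krt18, so the pair was alike in order within groups only.

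Because both genes were read on the same array, Krt8 minus Krt18 does not depend on how arrays are scaled by a constant. That log2 difference was -2.65, -2.63 and -2.63 in STAM-NON, -3.04, -3.00 and -2.95 in STAM-INS and -2.24, -2.45 and -2.21 in Normal. The 3 groups did not overlap, with Normal highest and STAM-INS lowest. The SD over the 3 STAM-NON mice was 0.011 for the difference, beside 0.36 for each gene alone. In STAM-INS it was 0.045, beside 0.12 for Krt8 and 0.15 for Krt18. In Normal it was 0.13, close to the 0.15 of Krt8 alone, with 0.26 for Krt18. The mean difference was -0.34 for STAM-NON minus Normal and -0.36 for STAM-INS minus STAM-NON. The two-sided exact permutation p was 0.1 for each, the smallest that 3 mice against 3 can give, so the design could not reach the threshold. The step from STAM-NON to STAM-INS lies within a slide. It stayed between -0.39 and -0.34 when any of these 6 mice was left out, and was -0.36 with normexp background correction and -0.40 after quantile normalisation. This comparison was chosen after the values had been seen, and it is given as a description.

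**Figure D3:**
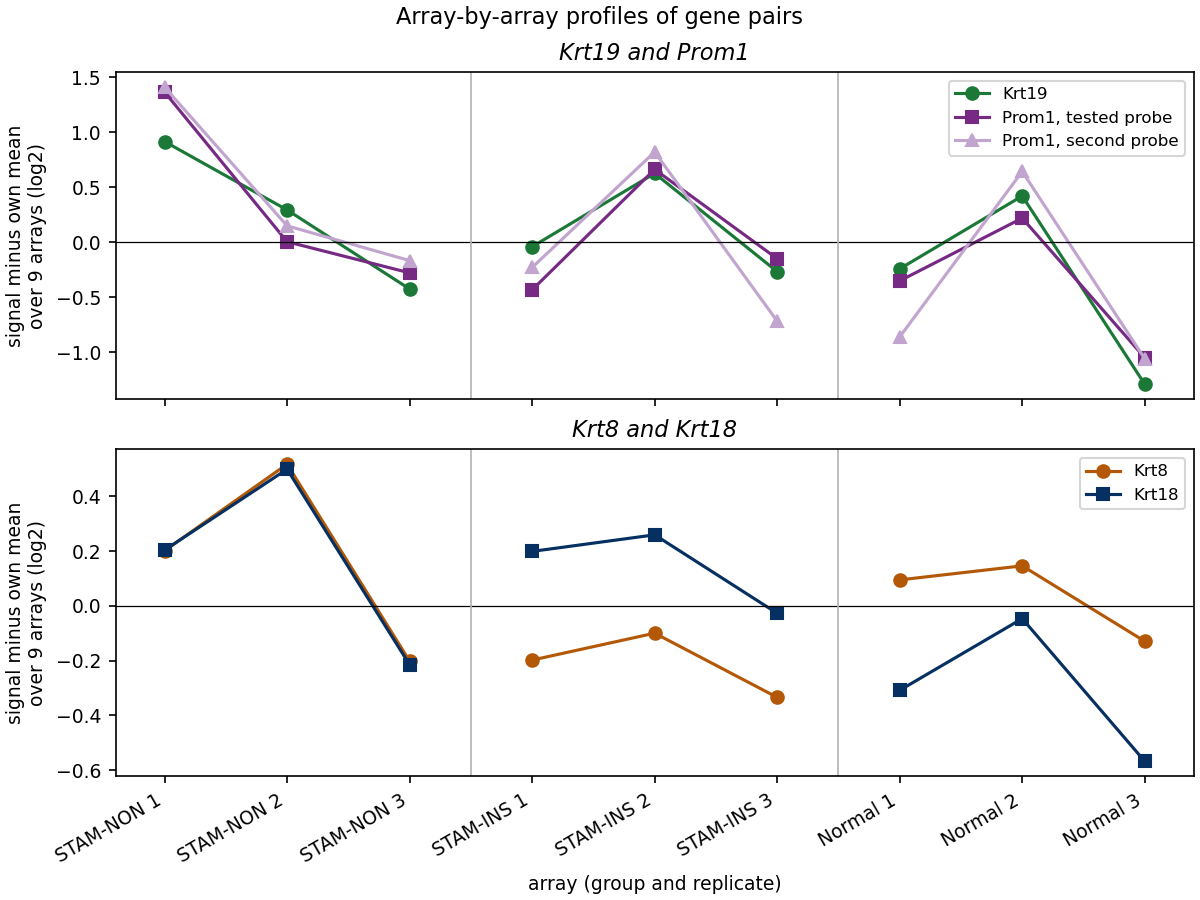
Signal of each probe minus its own mean over the 9 arrays (vertical axes, log2) on each array (horizontal axis), for Krt19 with both probes of Prom1 (upper panel) and for Krt8 with Krt18 (lower panel). Lines join mice of a group only to guide the eye. Krt8 and Krt18 coincide in STAM-NON, while Krt18 lies above Krt8 in STAM-INS and below it in Normal.

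Krt19 encodes the type I keratin most often used to mark bile ducts, and Prom1 encodes prominin 1 (CD133), a membrane protein of cholangiocytes and progenitor cells. Krt19 read -0.17, -0.79 and -1.51 in STAM-NON, -1.13, -0.46 and -1.35 in STAM-INS and -1.33, -0.67 and -2.38 in Normal. Prom1 read 1.12, -0.24 and -0.53 in STAM-NON, -0.68, 0.41 and -0.40 in STAM-INS and -0.60, -0.03 and -1.30 in Normal. The groups overlapped for both genes in all 3 comparisons. Against Normal, Krt19 differed by 0.63 ± 0.48 (SE) in STAM-NON and 0.48 ± 0.48 in STAM-INS, with limma adjusted p of 0.368 and 0.517. Prom1 differed by 0.76 ± 0.49 (SE) and 0.42 ± 0.49, with limma adjusted p of 0.298 and 0.583.

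Krt19 and Prom1 had similar profiles from mouse to mouse, though the order of STAM-INS replicates 1 and 3 differed. Likeness was measured as the root mean square difference between the profiles of a pair of genes over the 9 arrays, after each gene's own mean was subtracted. Prom1 was the closest of 13384 genes to Krt19, and Krt19 the closest to Prom1, at 0.255 on the log2 scale. Next came Ccdc34 (0.280) and Ston2 (0.281) for Krt19, and Fancb (0.304) and Evpl (0.311) for Prom1. Their own SDs over the arrays were 0.66 and 0.69. The arrays share the same RNA preparations and scaling, and the rank moved with the arrays used: seen from Krt19, Prom1 ranked between 1 and 20 when an array was left out and 21 with normexp, the highest of these being 20 without Normal replicate 3. Seen from Prom1, Krt19 ranked between 1 and 3 when an array was left out and 2 with normexp. The second probe of Prom1 was well above background on 1 array (STAM-NON replicate 1), so its profile is drawn but not ranked. Krt19 minus Prom1 on the same array did not separate the groups, with exact permutation p of 0.7, 0.4 and 0.9.

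Cd24a encodes a small glycosylated surface protein found on cholangiocytes and progenitor cells and also on B cells, neutrophils and young red cells. Its centred log2 signal was 1.34, -0.23 and 1.85 in STAM-NON, -0.31, 0.93 and 0.00 in STAM-INS and -1.51, -0.77 and -1.79 in Normal. All STAM mice lay above all Normal mice, and treated and untreated STAM mice overlapped. Cd24a was 2.34 ± 0.55 (SE) higher in STAM-NON than in Normal, or 5.07-fold, with a limma adjusted p of 0.0289. In STAM-INS it was 1.57 ± 0.55 (SE) above Normal, with a limma adjusted p of 0.0914. The call in STAM-NON against Normal held under 12 of 22 settings. It missed the threshold without STAM-NON replicate 1 or 3, or without any of the 3 Normal arrays, at adjusted p between 0.0559 and 0.0897. It was 1.69 with normexp (adjusted p = 0.0337) and missed the threshold with the slide row as a block (adjusted p = 0.225). Cd24a also missed with no filter on dim probes and with only STAM-NON and Normal fitted. The same held with the replicate number as a block and at a threshold of 0.01.

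Markers of the blood cells that carry Cd24a were read on the same arrays. The summed signal of 5 neutrophil markers, in multiples of the 75th percentile signal, was 15.3, 9.13 and 185 in STAM-NON, 17.5, 26.8 and 10.2 in STAM-INS and 7.23 to 8.10 in Normal. That of 4 red cell markers was 57.1, 212 and 392 in STAM-NON, 74.96, 530 and 303 in STAM-INS and 101 to 113 in Normal. In both comparisons with Normal 3 of the 4 lay above 0 and Alas2 below. Alas2 had centred log2 signals of 4.88 to 5.24 in Normal and 1.79 to 4.29 in the STAM mice. STAM-NON replicate 3, the mouse with the most Cd24a, was highest in the neutrophil sum and second in the red cell sum. STAM-NON replicate 1, the next in Cd24a, was lowest in the red cell sum. Of these markers none was called higher in either comparison with Normal, and Elane was lower in STAM-INS (-0.59, limma adjusted p = 0.0179). Of the B and T cell markers, Cd79a was well above background on 1 array and Ms4a1 on 4, and none of the 4 tested was called. Their part in the Cd24a result was not tested. The gene closest to Cd24a in profile was the platelet factor gene Pf4 (0.278), followed by H1f5 (0.353) and Loxl2 (0.369).

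Krt23 encodes a type I keratin that is induced in duct-like cells of the injured liver. It read 5.50, 4.06 and -1.20 in STAM-NON, 0.73, -1.18 and 0.07 in STAM-INS and 2.27, 3.25 and 2.88 in Normal. In spot signal these were 13555, 4009 and 125 in STAM-NON, 445, 112 and 261 in STAM-INS and 1187, 2235 and 1655 in Normal. Thus 2 untreated STAM mice lay above all Normal mice, and the other was the lowest of the 9 arrays, next to STAM-INS replicate 2. The SD in STAM-NON was 3.52, and 5 of the 13384 other genes had a larger SD in that group. The means of STAM-NON and Normal differed by -0.01 ± 1.47 (SE), with a limma adjusted p of 0.996.

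Krt23 was lower in all 3 insulin-treated mice than in all 3 Normal mice, by -2.93 ± 1.47 (SE). With the spread of all 3 groups pooled the limma adjusted p was 0.204. It was 0.0161 when only STAM-INS and Normal arrays were fitted, and 0.0179 without STAM-NON replicate 3. In STAM-INS against STAM-NON the difference was -2.92 ± 1.47 (SE), with an adjusted p of 0.612. Without STAM-NON replicate 3 it was -4.91, with a limma adjusted p of 0.0329. That mouse also had the highest summed neutrophil signal, and the part of that in the Krt23 value was not tested. The genes closest to Krt23 in profile were Esrrg (1.103), Aqp4 (1.18) and Tpm2 (1.22), beside its own SD of 2.35 over the arrays.

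Epcam encodes a cell adhesion protein of cholangiocytes and progenitor cells. It was well above background on 2 of 3 STAM-NON, 2 of 3 STAM-INS and 1 of 3 Normal arrays, so it was not tested. Its readings were -2.06, -3.40 and -2.77 in STAM-NON, -2.97, -4.03 and -2.91 in STAM-INS and -3.80, -3.31 and -3.90 in Normal, and the groups overlapped. A difference in Epcam was not detectable at this signal.

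**Figure D4:**
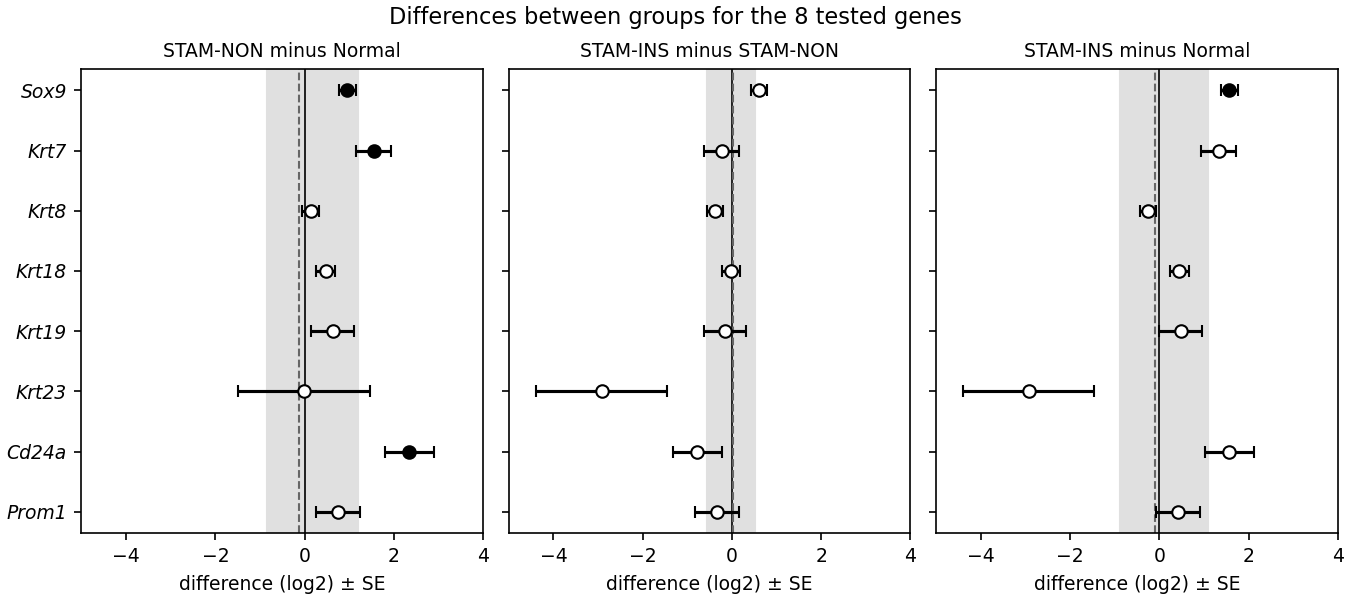
Difference between groups (horizontal axes, log2) with its limma standard error for the 8 tested genes in the 3 comparisons. Filled points passed an adjusted p of 0.05, the grey band holds the middle 90% of all tested probes, and the dashed line is their median. Sox9, Krt7 and Cd24a pass in STAM-NON against Normal and Sox9 passes in STAM-INS against Normal.

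By mouse, STAM-NON replicate 1 was the highest of the 9 arrays for 4 of the 8 genes, and Normal replicate 3 the lowest for 6 of the 8. Without Normal replicate 3, or without STAM-NON replicate 1, the count of called genes in STAM-NON against Normal went from 3 to 0, while calls over all probes went from 4220 to 940 and 1537. It was 1 without STAM-NON replicate 3 and 1 without Normal replicate 1, with 1891 and 1154 calls over all probes. With either of the first pair left out, the median difference of the 8 genes was 0.38. Under the 5 other ways of background correction and scaling, the number of the 8 genes above 0 in STAM-NON against Normal was 6 to 8, and all 8 lay above the median of all probes.

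Other bile duct genes differed from Normal in both directions. Of 15 listed, 11 were tested, and in STAM-NON against Normal 1 was called higher and 2 lower. The difference was above 0 for 7 of the 11, beside 36.8% of all probes, with a median difference of 0.22 beside -0.13 for all probes. Spp1, which encodes osteopontin, was 1.50 ± 0.41 (SE) higher (limma adjusted p = 0.0423). Aqp1, a water channel of bile ducts and vessels, fell by 1.01 and Slc4a2, the bicarbonate exchanger of ducts, fell by 1.26 (limma adjusted p = 0.0440 and 0.0142). Both also fell in STAM-INS against Normal, by 1.23 and 1.42 (limma adjusted p = 0.0261 and 0.00770), and no other gene of the list was called there. Cftr, Pkhd1 and Sctr, which encode a chloride channel, a cilium protein and the secretin receptor, were not called in any comparison. Bicc1 and Tspan8 were not called either, though both were higher without overlap in STAM-NON than in Normal (1.29 and 1.06, limma adjusted p = 0.0538 and 0.130).

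The counts of called genes in the bile duct list and in the lists below stand beside the shares of all probes. In STAM-NON against Normal 16.1% of all probes were called in either direction and 6.30% were called higher. In STAM-INS against Normal these shares were 13.9% and 5.15%, so in both comparisons more probes were called lower than higher. Of 11 other progenitor genes tested, 2 rose in STAM-NON against Normal and none was called in STAM-INS against Normal. Sox4, a transcription factor of bile duct development, was 2.21 ± 0.52 (SE) higher and Cd44, a hyaluronan receptor, 0.89 ± 0.25 (SE) higher (limma adjusted p = 0.0285 and 0.0452). A list for the Notch pathway, which directs duct formation and acts on Sox9, held 10 tested genes. In STAM-NON against Normal 6 of them lay above 0 and 4 below, and 2 were called higher. These were Sox4, already counted as a progenitor gene, and the receptor gene Notch3 (1.26 ± 0.27 SE, limma adjusted p = 0.0239). The Notch target Hes1 differed by 0.35 and Rbpj by -0.21, both uncalled. Of 12 tested genes of the YAP pathway, which is tied to the duct-like state of hepatocytes, 7 lay above 0 in STAM-NON against Normal and 5 below. Axl (1.06, limma adjusted p = 0.0391) and Tead1 (0.63, limma adjusted p = 0.0281) were called higher. Yap1 and Amotl2 were lower there and uncalled (-0.37 and -0.51, limma adjusted p = 0.0506 and 0.0826). Ankrd1 was higher there and uncalled, by at least 2.40-fold (limma adjusted p = 0.107). Its probe stayed at background in all Normal mice and passed the filter only through the STAM-NON mice, where it was higher. In STAM-INS against Normal 1 YAP gene was called, Amotl2, which was lower (-0.75, limma adjusted p = 0.0307).

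The other keratins were mostly dim. Of 17 listed, 7 were tested and 4 (Krt1, Krt6a, Krt12 and Krt75) were not well above background on any array. Krt16 and Krt80 fell in both comparisons with Normal, by 0.60 and 0.88 in STAM-NON (limma adjusted p = 0.0302 and 0.0149) and by 0.72 and 0.96 in STAM-INS (limma adjusted p = 0.0174 and 0.00927). Of 14 genes of desmosomes, linkers and other intermediate filaments, Lmna rose in STAM-NON (0.66, limma adjusted p = 0.0267) and STAM-INS (0.63, limma adjusted p = 0.0312). Pkp1 encodes a desmosome protein whose probe stayed at background in all 3 Normal mice. Pkp1 passed the filter only through the STAM mice, where it was higher, and its limma p rests on Normal readings at background. It was higher by at least 3.12-fold in STAM-NON and by at least 1.93-fold in STAM-INS (limma adjusted p = 0.0154 and 0.0309). Dsc2 and Pkp3 fell in STAM-INS against Normal by 0.73 and 0.47 (limma adjusted p = 0.0302 and 0.0364). None of the genes in these lists passed the limma threshold in STAM-INS against STAM-NON.

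**Figure D5:**
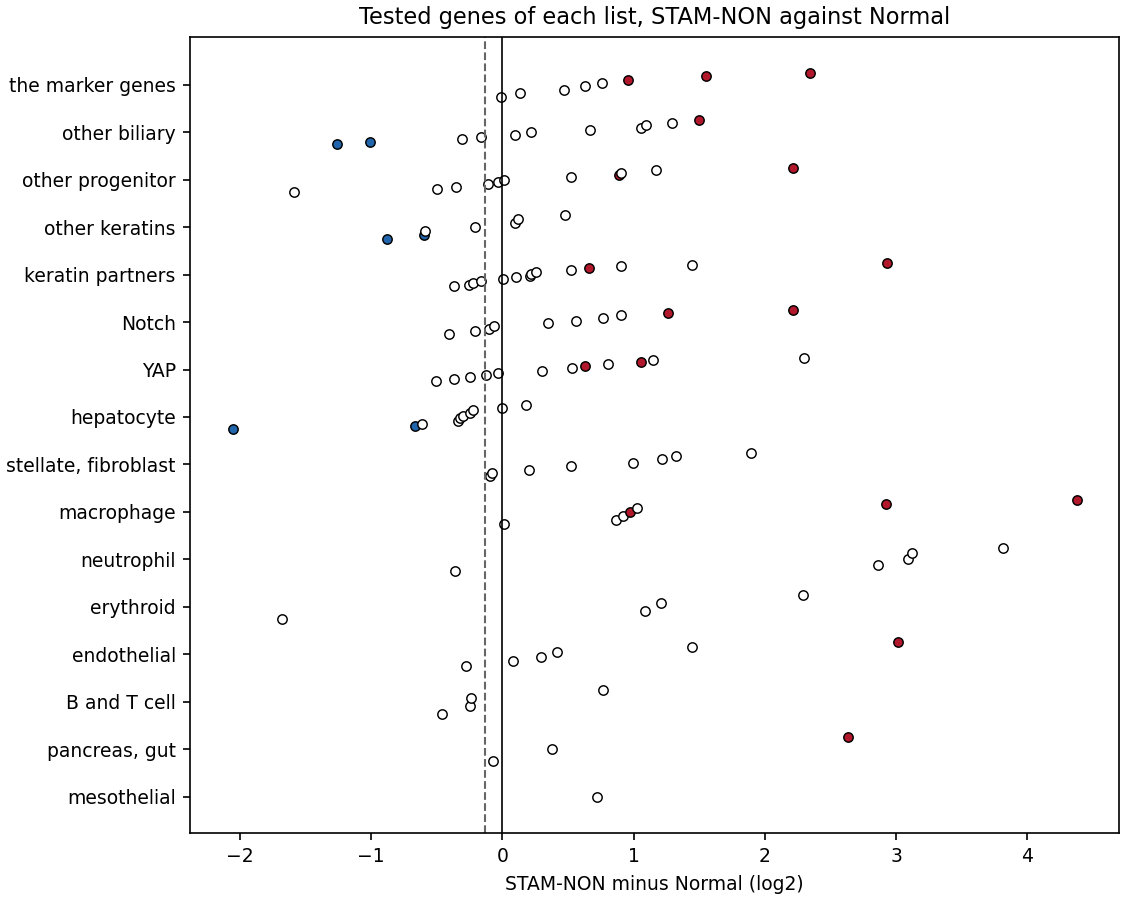
Difference between STAM-NON and Normal (horizontal axis, log2) for each tested gene of the lists (rows). Red points were called higher, blue points called lower and white points not called by limma at an adjusted p of 0.05, and the dashed line is the median of all probes. The other biliary genes lie on both sides of 0, while all 7 macrophage genes lie above it.

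Markers of other cell types were read beside these results. Of 10 hepatocyte genes, Cyp3a11 and Cps1 fell by 2.06 and 0.67 in STAM-NON (limma adjusted p = 0.0142 and 0.0297). In STAM-INS Cyp3a11 fell by 2.44 and Cps1 fell by 0.67 (limma adjusted p = 0.00633 and 0.0309). Their summed signal was 5684 to 6015 in Normal and 3889 to 4902 in the STAM groups. Of 7 macrophage genes, Trem2 and Clec4f rose in STAM-NON, by 2.93 and 0.97 (limma adjusted p = 0.0122 and 0.0420). Gpnmb rose at least 4.32-fold there (limma adjusted p = 0.0186). It stayed at background in all Normal mice and passed the filter only through the STAM-NON mice, where it was higher. Trem2 and Clec4f also rose in STAM-INS (2.61 and 0.97, limma adjusted p = 0.0137 and 0.0454). Summed macrophage signal was 63.4 to 88.3 in Normal and 91.8 to 184 in the STAM groups. None of 8 stellate cell and fibroblast genes was called. In STAM-NON against Normal 6 of them lay above 0 and 2 below, with a median difference of 0.76 beside -0.13 for all probes. Col1a1, Col1a2 and Col3a1 were higher there without overlap, by 1.89, 1.32 and 1.22 (limma adjusted p = 0.0767, 0.0805 and 0.0701). Of 6 endothelial genes, Lyve1 rose in STAM-NON (3.01, limma adjusted p = 0.0240). The pancreatic enzyme genes Cpa1 and Pnlip were not well above background on any array. Cela1, an elastase gene, rose in STAM-NON (2.63, limma adjusted p = 0.0180) and STAM-INS (1.94, limma adjusted p = 0.0425), and Lgals4 fell in STAM-INS (-0.89, limma adjusted p = 0.0355). The 1 tested mesothelial gene, Msln, was not called. The part of these cell types in the Sox9, Krt7 and Cd24a results was not tested.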

How the data were processed

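Liver RNA of 3 STAM-NON, 3 STAM-INS and 3 Normal mice was labelled with Cy3 and hybridised to Agilent mouse arrays designed on mm9. The deposited files hold spot intensity from Feature Extraction 11.5.1.1 after background subtraction, not normalised between arrays, as the authors left it. No spot was saturated. Outlier spots (161 to 217 per array) and control spots were left out, and spots of a probe were averaged. Each array's 75th percentile was subtracted from the log2 values. A GRCm38.p6 table of RefSeq, which also gave the promoter sequences, named 27656 of 55681 probes.

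The test was two-sided, by lmFit and eBayes of limma 3.58.1 under R 4.3.3, fitted on all 9 arrays with 6 residual degrees of freedom and Benjamini-Hochberg adjustment over 26289 probes. Of these, 12 lacked a value on some array, none of them a marker probe. The brightest tested probe stood for a gene. A bound ("at least") sets the brighter mean against the higher, per array, of the dim probe's signal and the lowest detected signal. Up to 4 called genes of largest difference are named per list and comparison, and some genes beyond these were named after their values were seen. Some genes the rule or lists hold are not reported here. The code was tested on simulated data. The markers and lists were chosen with earlier results of these data known. The number of arrays limits the precision.

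The alternatives were other background correction (normexp with offset 50, on the median spot signal), scalings, filters, thresholds, variance models, blocks by slide row or replicate number, and leaving out each array. Numbers did not pair mice: deviations of arrays with the same number correlated between -0.29 and 0.15, and 1 of 9 pairs was above 0.1.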

Additional observations from a re-analysis of the deposited data

Results flagged for a closer look

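The second probe of Prom1 entered no comparison. It was well above background on STAM-NON replicate 1, at a centred log2 signal of -3.26, and on no Normal array, which singled it out. Its readings on the 3 Normal arrays were -5.53, -4.03 and -5.73.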

How the results depend on the processing

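The count of 3 genes called in STAM-NON against Normal was 0 with no filter on dim probes, 1 with only these 2 groups fitted, 0 with the slide row as a block and 0 at a threshold of 0.01, and ranged from 0 to 3 when an array was left out. The count of 0 in STAM-INS against STAM-NON ranged from 0 to 1 when an array was left out. The count of 1 in STAM-INS against Normal was 4 with only these 2 groups fitted and 3 at a threshold of 0.1, and ranged from 1 to 2 when an array was left out. With the replicate number as a block the counts were 2, 0 and 1, and Cd24a in STAM-NON against Normal missed the threshold (adjusted p = 0.0672). The block moved the probes called from 4220 to 2016, from 24 to 6 and from 3647 to 1871. The cause of these changes was not tested. Unfiltered fits adjust over more probes, and the part of that was not tested either.

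Signs turned only for differences that were not called, the largest in size being -0.34 for Prom1 in STAM-INS against STAM-NON. Krt23 in STAM-NON against Normal was 0.12 with normexp, 0.11 after quantile normalisation, 0.15 with the percentile of probes detected on all arrays, 0.26 with spike-in centring, and -1.37 to 1.98 when an array was left out. Krt8 there was -0.018 with median centring and -0.038 to 0.32 when an array was left out. In STAM-INS against STAM-NON the slide row block gave 0.024 for Krt7 and 0.036 for Krt18. Leaving out an array gave -0.47 to 0.13 for Krt7, -0.21 to 0.15 for Krt18, -0.50 to 0.17 for Krt19 and -0.66 to 0.16 for Prom1.

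Over all probes, calls in STAM-NON against Normal numbered 250 with no filter, 15 with the slide row, 7536 and 304 at thresholds of 0.1 and 0.01, 2180 with 2 groups, and 940 to 5822 when an array was left out. In STAM-INS against STAM-NON they numbered 7, 13, 32, 9, 8 and 10 to 105, and 6 on probes detected on all arrays. In STAM-INS against Normal they numbered 571, 2157, 6369, 727, 5194 and 1038 to 4326, and 1973 with spike-in centring. Scaling moved the share called higher in STAM-NON against Normal from 1655 of 4220 to 2443 of 2881 with spike-in centring, 2077 of 3141 with probes detected on all arrays, 1539 of 2965 after quantile normalisation and 1313 of 4702 with normexp. The median of all probes then lay between -0.29 and 0.14. In STAM-INS against Normal the split went from 1355 of 3647 to 1276 of 1973 with spike-in centring, 1679 of 2977 with probes detected on all arrays and 801 of 2912 with median centring. Accepting any tested probe of a gene changed no count, since no gene had a second tested probe, and a fit on other probes could not be made. Krt7 in Normal and Epcam lay near the background of the array, which limits their values.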
